A study of Mus musculus with 16 samples.

Results

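Nascent transcription was described for 10 genes of the hypoxia response and of glycolysis in mouse embryonic stem cells: Slc2a1, Slc2a3, Hk2, Pfkp, Pfkfb3, Ldha, Pdk1, Vegfa, Bnip3 and Egln3. They were chosen by symbol from 24978 gene symbols, with the line spanning the most bases used for each, and all 10 passed the filter of a mean of at least 0.2 CPM (reads scaled to a total of 1000000 per column) that left 14094 genes for testing. Bru-seq had been used, in which living cells take up bromouridine (2 mM for 30 min here) and an antibody pulls down the RNA that holds it, so that newly made transcripts, introns included, are counted. Each counted read carried a variant of either the 129 or the castaneus (cast) copy.

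The 14 edited libraries came from derivatives of F121-9, a hybrid line with 1 cast and 1 129 copy of each chromosome. Deletions of lettered sites gave abc.del (2 libraries), ab.del (2), c.del (2), ac.del, bc.del, a.del and b.del (1 each). Edits named otherwise gave 4k.b.c, 100kdel, 245kdel and the inversion 680kinv (1 each), and unedited F121-9 gave 2. The labels leave out which copy was edited and the oxygen level. They also do not say whether the codes that end the names of replicates mark separate clones, so p-values reflect only how far these libraries spread, which may be technical. Per the labels' protocols, hybrid cells were grown on gelatin in medium with 2i inhibitors and LIF. Sample numbers formed 2 consecutive runs of 8 libraries whose meaning the labels do not state. The second run held ab.del replicate 2, c.del replicate 2, ac.del, a.del, b.del, 4k.b.c, 100kdel and 245kdel, and the first run held both abc.del libraries, ab.del replicate 1, c.del replicate 1, bc.del, 680kinv and both F121-9 libraries.

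Cells respond to low oxygen through HIF, a transcription factor made of an oxygen-regulated alpha subunit and the stable partner ARNT. In oxygen, prolyl hydroxylases of the EGLN family mark the alpha subunit, the VHL protein binds it and it is degraded. When oxygen falls, HIF binds short DNA elements with the core ACGTG or GCGTG. It raises genes that import glucose, run glycolysis, hold pyruvate back from mitochondria, remove mitochondria and recruit blood vessels. Pluripotent stem cells also use glycolysis in ordinary oxygen, and genes of this kind can be active there without hypoxia.

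Start-site sequences were read because pairs of these genes varied together across libraries. RefSeq windows on GRCm38.p6 (the same assembly as mm10), from 250 bases before to 50 bases after a transcript's start, were matched for 9 of the 10 genes in the table used here. ACGTG was searched on both strands, so that CACGT on the printed strand also counts, and 6 of the 9 windows at the start of the line used held a match, against 19.6% of 32851 windows of the same length. Among windows of a GC content like that of each of the 9, the share with a match was 21.2% to 29.4%. The windows of Ldha and Bnip3 are shown because these genes were lower in the second run of sample numbers. That of Egln3 is shown because it varied with Bnip3, and that of Hk2 because it was higher in the second run. Each window shown holds a match. Pfkp and Pfkfb3 also varied together, and their windows, not shown, held no match and 1 match. Matches are in capitals, and CACGTG is a match on each strand whose letters overlap.
Ldha, chr7:46845554-46845853, plus strand: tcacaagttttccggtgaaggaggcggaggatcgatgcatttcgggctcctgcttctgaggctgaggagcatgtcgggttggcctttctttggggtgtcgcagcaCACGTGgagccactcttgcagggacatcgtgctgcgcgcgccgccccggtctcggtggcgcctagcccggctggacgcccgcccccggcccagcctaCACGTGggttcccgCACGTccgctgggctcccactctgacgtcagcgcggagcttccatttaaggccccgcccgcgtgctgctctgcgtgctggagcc
Bnip3, chr7:138909457-138909756, minus strand: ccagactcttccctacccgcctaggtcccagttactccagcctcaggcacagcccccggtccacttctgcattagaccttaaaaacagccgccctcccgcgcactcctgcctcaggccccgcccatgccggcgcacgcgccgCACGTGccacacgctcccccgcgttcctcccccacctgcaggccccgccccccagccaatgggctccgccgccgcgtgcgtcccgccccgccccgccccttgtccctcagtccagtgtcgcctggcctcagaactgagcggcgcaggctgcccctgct
Egln3, chr12:54203825-54204124, minus strand: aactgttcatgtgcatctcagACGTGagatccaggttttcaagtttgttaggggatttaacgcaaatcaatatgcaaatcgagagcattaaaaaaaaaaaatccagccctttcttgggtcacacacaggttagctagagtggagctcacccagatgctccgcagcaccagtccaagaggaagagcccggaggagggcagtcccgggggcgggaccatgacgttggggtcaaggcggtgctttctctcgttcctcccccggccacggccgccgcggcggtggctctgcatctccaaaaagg
Hk2, chr6:82774405-82774704, minus strand: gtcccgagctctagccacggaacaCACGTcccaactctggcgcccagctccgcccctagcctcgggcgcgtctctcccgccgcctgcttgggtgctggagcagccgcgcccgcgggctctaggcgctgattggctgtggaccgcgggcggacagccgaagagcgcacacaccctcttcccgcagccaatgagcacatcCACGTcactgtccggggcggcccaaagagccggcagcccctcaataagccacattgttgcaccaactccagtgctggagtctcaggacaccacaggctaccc
Ldha had 5 matches, of which 2 pairs overlapped, and 1.73% of all windows had at least 3. Bnip3 had 2 overlapping matches, Hk2 had 2, and Slc2a1, Egln3 and Pfkfb3 had 1 each, while the windows of Pdk1, Pfkp and Vegfa held no match. Windows at the starts of shorter lines of Vegfa and Pfkfb3 held 1 and 2, and those of Ldha and Pdk1 held no match. The other form of the core, GCGTG, was not searched, so a window with no match may still hold it. A match in this window is a description and says nothing about binding.

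Allele-assigned reads over genes ranged from 8.96 M to 32.0 M per library (M standing for 1000000; median 16.4 M). A gene of the 10 had 19 to 13355 reads in a library. All 8 embryonic stem cell markers checked were present, led by Esrrb (median 728 CPM), Tfcp2l1 (509 CPM) and Zfp42 (287 CPM). Markers of fibroblast feeders summed to 0 to 1.65 CPM over 7 genes. On the autosomes 51.0% to 53.4% of reads came from the 129 copy, but in a.del and 4k.b.c that share was 0.440% and 0.457% on chromosome 12, against 50.5% to 52.2% in the other 14 libraries, and in 4k.b.c it was 36.7% on chromosome 7. Ldha and Bnip3 lie on chromosome 7 and Egln3 on chromosome 12.

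Each line covers a gene with its exons and introns, on mm10. Slc2a1 spans chr4:119108745-119137329 (plus strand), Slc2a3 chr6:122727809-122742745, Hk2 chr6:82725027-82774454, Pfkp chr13:6579874-6648771 and Vegfa chr17:46016993-46032377 (all minus). Ldha spans chr7:46845804-46855627 (plus), Bnip3 chr7:138890836-138909506 and Egln3 chr12:54178981-54203874 (both minus).

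Per length, Slc2a3 gave the highest mean nascent signal of the 10 genes and Egln3 the lowest. As the mean of both copies over 16 libraries, Slc2a3, the neuronal-type glucose transporter, gave 5.04 CPM per kb, Ldha, the lactate dehydrogenase subunit that turns pyruvate into lactate, 3.34, and Hk2, a hexokinase that traps glucose in the cell, 2.96. Pdk1, the kinase that switches off pyruvate dehydrogenase, gave 1.69 CPM per kb, Slc2a1, the widespread glucose transporter, 1.57, and Pfkp, a phosphofructokinase, 1.57. Below these came Vegfa, the angiogenic growth factor, at 0.446, Bnip3, a mitochondrial receptor for mitophagy, at 0.435, Pfkfb3, which makes the allosteric activator of phosphofructokinase, at 0.307, and Egln3, a HIF prolyl hydroxylase that HIF itself induces, at 0.248 CPM per kb. The ranges over libraries overlapped in 8 of the 9 pairs of neighbours in this order, and the exception was Pfkp (at least 0.978 CPM per kb) above Vegfa (at most 0.720), while Bnip3, next in the order, reached 2.02. Only reads over a difference between the 2 genomes could be assigned, so levels also depend on how many such differences a gene carries.

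**Figure D1:**
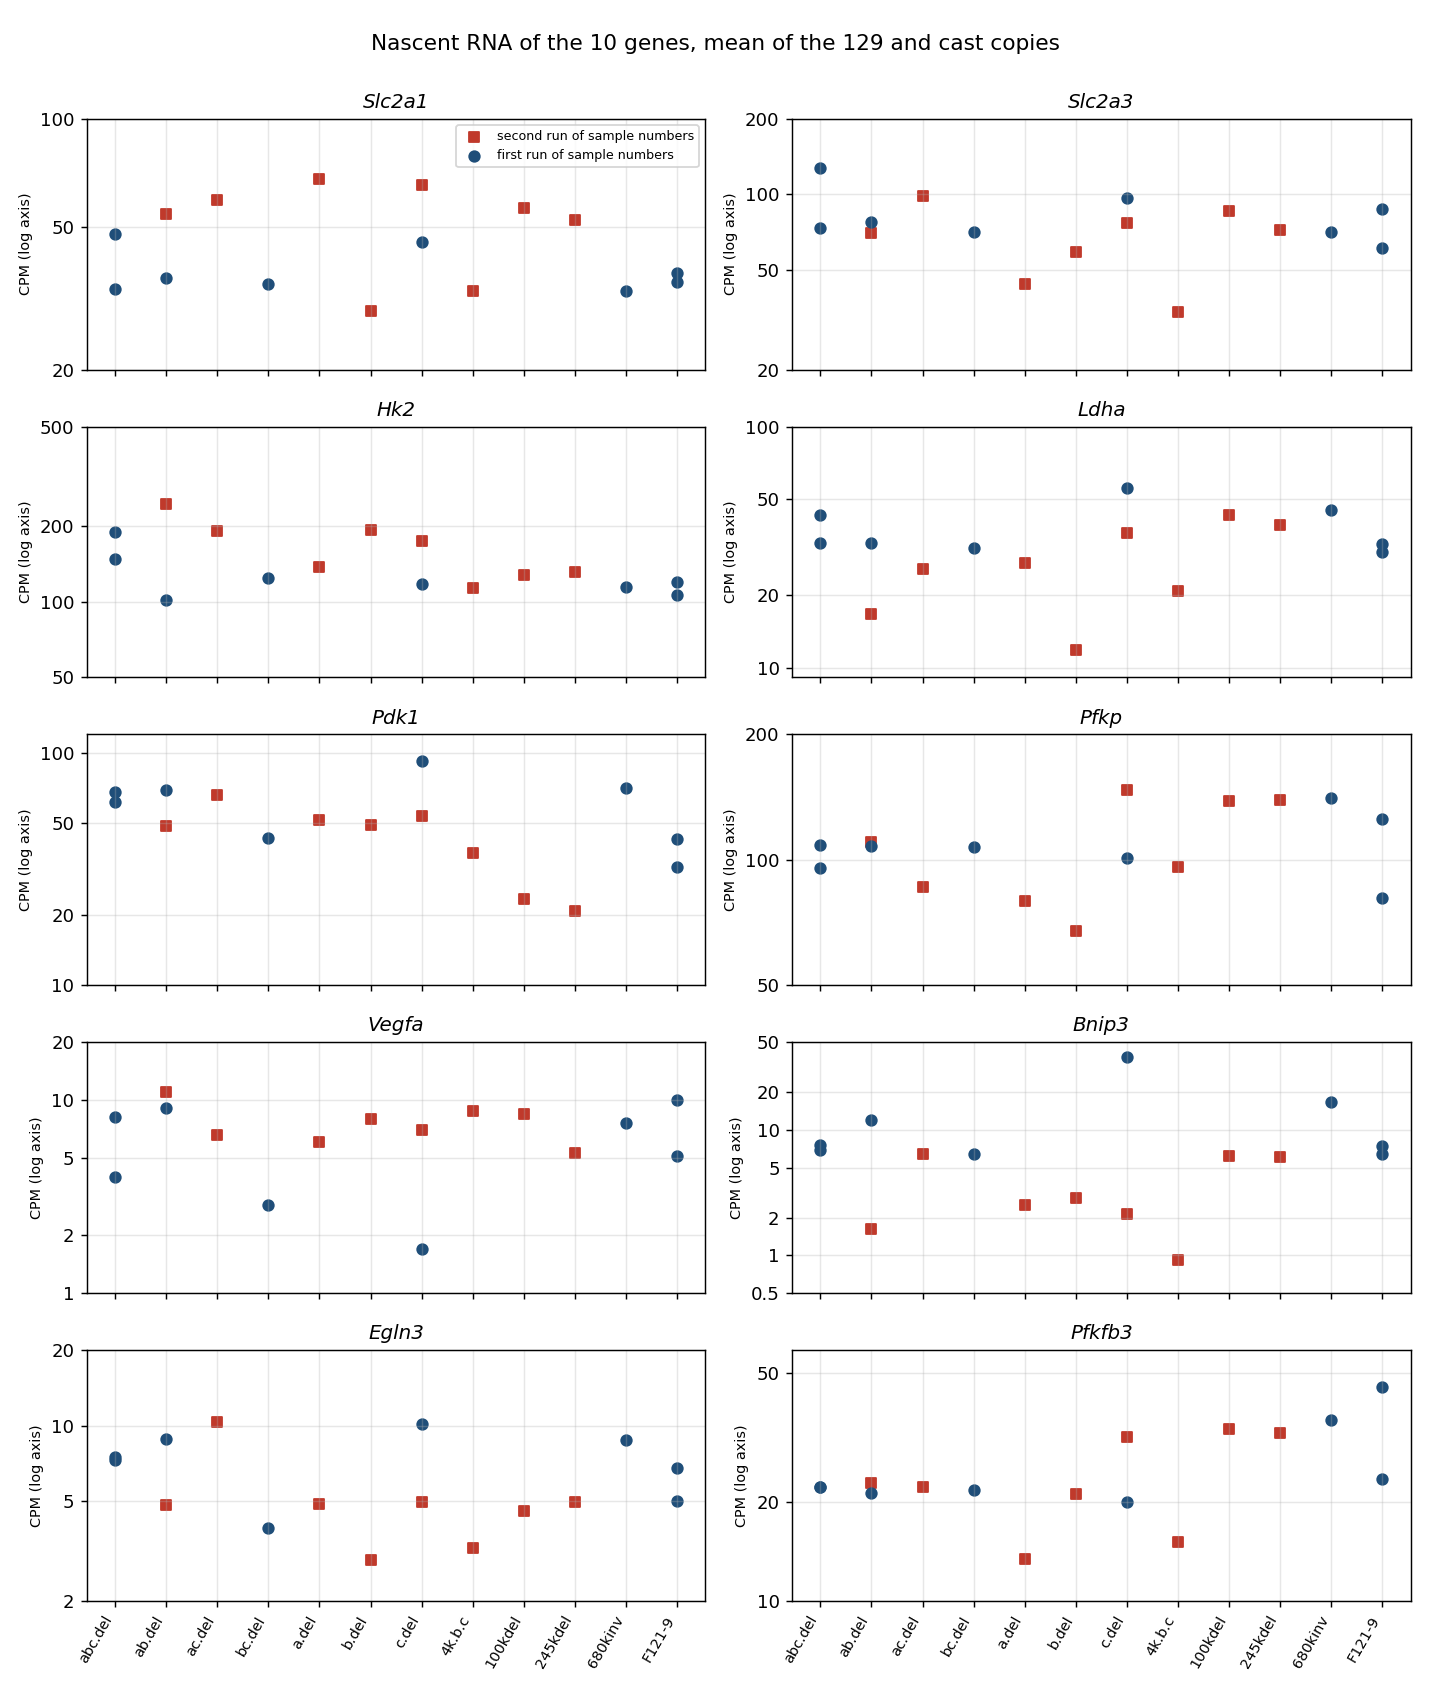
Nascent RNA (y axes, CPM as the mean of the 129 and cast copies, log axes) of the 10 genes in each library (1 point each), by group (x axis), with squares for the second and circles for the first run of sample numbers. Bnip3 spans the widest range, with 37.8 CPM in c.del replicate 1 and 0.912 CPM in 4k.b.c.

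Bnip3 varied most among the 10 genes. Its highest library, c.del replicate 1, exceeded its lowest, 4k.b.c, 41.4-fold. The ratio was 18.4-fold without c.del replicate 1 and 23.4-fold without 4k.b.c, where the 129 share of chromosome 7 was 36.7%. With all 16 libraries its SD on the log2 scale was 1.29, which 19 of 1821 genes within 1.5-fold of its level exceeded, and it was 1.13 without a.del and 4k.b.c. For the other 9 genes the ratio of highest to lowest ran from 2.18-fold for Pfkp to 6.56-fold for Vegfa. Vegfa had an SD of 0.70, against a median of 0.50 for genes of like level, and Egln3 had 0.55, against 0.51. The SD of Pdk1 was 0.58, against 0.29, and that of Ldha 0.56, against 0.32, and 156 of 1898 and 245 of 2022 genes of like level exceeded these.

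The edited groups were compared with F121-9 to ask whether any of the 10 genes differed with the lettered deletions. None passed an adjusted p of 0.05 in limma, fitted over all 14094 genes. For abc.del the count was 0 of 10, with 1 gene at an unadjusted p under 0.05, and 0.22% of all genes passed. For ab.del it was 0 of 10, with 0 unadjusted, and 0.0497% of all genes passed. For c.del it was 0 of 10, with 1 unadjusted, and 0.0497% of all genes passed. edgeR and DESeq2 on recovered reads also called 0 of 10 in each, with at most 1 at an unadjusted p under 0.05. The median log2 difference of the 10 genes was 0.20 in abc.del, 0.14 in ab.del and 0.31 in c.del, against 0.04, 0.08 and 0.09 for all genes. The 3 comparisons share the F121-9 libraries.

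Pdk1 came closest. As the mean of both copies it gave 61.3 and 67.8 CPM in abc.del, 69.4 and 48.3 CPM in ab.del and 92.6 and 53.8 CPM in c.del, against 32.4 and 42.5 CPM in F121-9. All 6 of these edited libraries lay above both F121-9 libraries, and so did 11 of all 14 edited libraries. The exceptions were 4k.b.c with 37.1 CPM, between the F121-9 values, and 100kdel and 245kdel with 23.5 and 20.9 CPM, below both. On the log2 scale the differences were 0.80 for abc.del, 0.64 for ab.del and 0.93 for c.del (SE 0.30 each), with limma adjusted p of 0.391, 0.648 and 0.400. With the run of sample numbers as a covariate the differences were 0.80, 0.97 and 1.25 and limma adjusted p was 0.0339, 0.0426 and 0.0162, and with only abc.del and F121-9 in the fit it was 0.0430, so the call depended on the fit. Over all genes, no setting called more than 671 in abc.del, 202 in ab.del or 224 in c.del. In abc.del the 129 copy of Pdk1 averaged 64.3 ± 3.57 CPM, compared with 35.4 ± 7.90 CPM in F121-9, and the cast copy 64.8 ± 5.50 CPM, compared with 39.4 ± 6.46 CPM in F121-9 (SD, n = 2 each). A long line named Mir5098, chr2:71414476-71893905 on the same strand, overlaps most of the Pdk1 line (chr2:71873224-71903858), so reads there cannot be told apart between them.

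**Figure D2:**
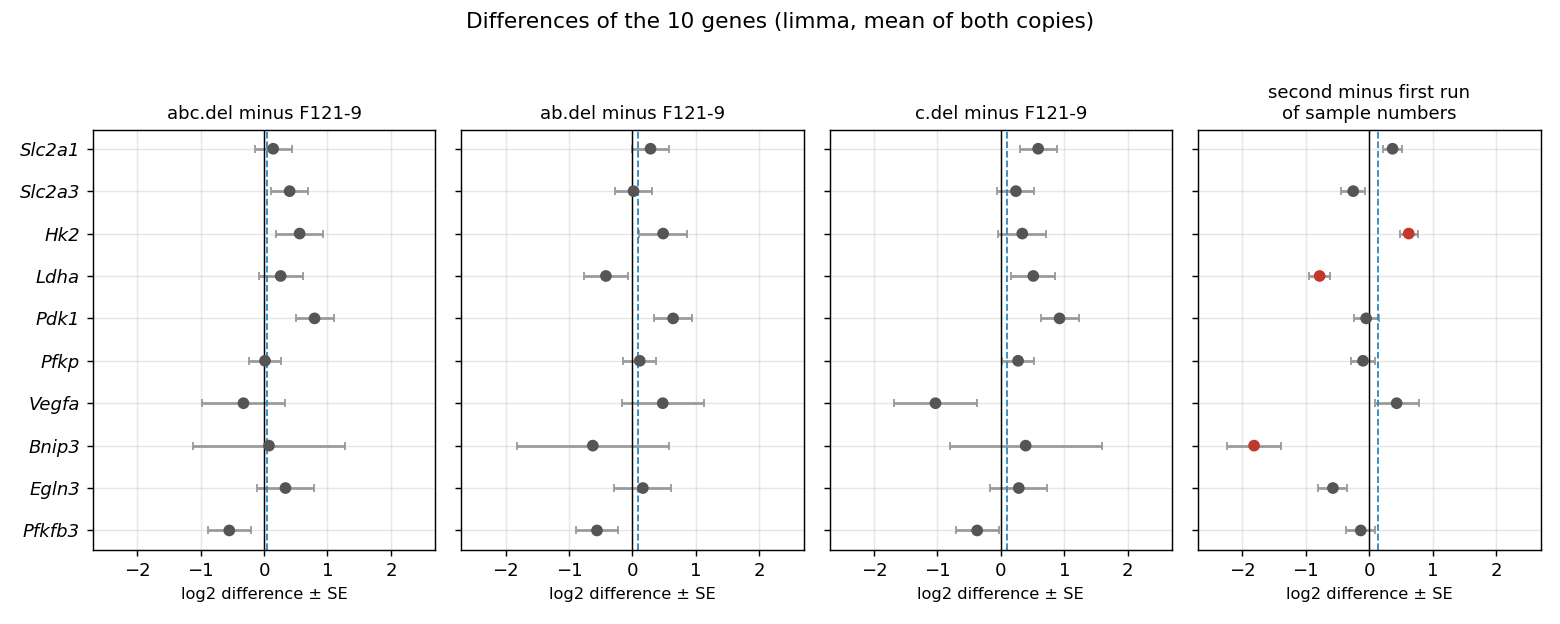
Difference (x axes, log2, ± SE) of each gene (y axis) in abc.del, ab.del and c.del from F121-9, and between the second and the first run of sample numbers, from limma on the mean of both copies. Red points passed an adjusted p of 0.05 and the dashed blue line is the median of all genes. Red points appear only in the last panel, for Hk2 at 0.62, Ldha at -0.78 and Bnip3 at -1.82.

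Bnip3 differed most between replicates of a group. It gave 37.8 and 2.13 CPM in c.del and 11.9 and 1.62 CPM in ab.del, the first of each pair from the first run of sample numbers, while abc.del (7.63 and 6.96 CPM) and F121-9 (6.40 and 7.44 CPM) were close. Its difference in c.del was 0.39 with an SE of 1.20 (limma adjusted p = 0.927). With the run as a covariate it was 2.11 (limma adjusted p = 0.0255), where no setting called more than 224 of all genes. In the fit without the run, leaving out c.del replicate 1 gave -1.65. Vegfa gave 1.69 and 7.00 CPM in c.del, against 5.16 and 9.97 CPM in F121-9, a difference of -1.03 (SE 0.65, limma adjusted p = 0.640). In c.del replicate 1, which had the lowest Vegfa, Bnip3, Ldha (55.6 CPM) and Pdk1 (92.6 CPM) were each the highest of all 16 libraries.

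The glucose entry genes did not pass in any edited group. Hk2 gave 148 and 190 CPM in abc.del, 102 and 246 CPM in ab.del and 117 and 175 CPM in c.del, against 120 and 107 CPM in F121-9, and its largest difference was 0.56 in abc.del (SE 0.37, limma adjusted p = 0.649). Slc2a1 gave 45.3 and 65.4 CPM in c.del, against 35.1 and 37.2 CPM in F121-9, a difference of 0.59 (SE 0.29, limma adjusted p = 0.564). Slc2a3 gave 127 and 73.2 CPM in abc.del, which overlapped with the 60.9 and 87.3 CPM of F121-9. Pfkp gave 108 and 95.7 CPM in abc.del, 108 and 110 CPM in ab.del and 101 and 147 CPM in c.del, against 81.1 and 125 CPM in F121-9, which overlapped in all 3.

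Ldha and Egln3 did not pass either. Ldha gave 32.8 and 43.2 CPM in abc.del, 32.9 and 16.7 CPM in ab.del and 55.6 and 36.1 CPM in c.del, against 32.7 and 30.1 CPM in F121-9, with differences of 0.26, -0.42 and 0.51 (SE 0.35 each). Egln3 gave 7.29 and 7.47 CPM in abc.del, 8.85 and 4.82 CPM in ab.del and 10.2 and 4.95 CPM in c.del, against 5.01 and 6.75 CPM in F121-9, with differences of 0.34, 0.16 and 0.28 (SE 0.45 each). Both abc.del libraries were above F121-9 for each gene, while in ab.del and, for Egln3, c.del 1 library lay on each side.

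The groups with 1 library have no replicate check. The b.del library was the lowest of all 16 for 4 genes, Slc2a1 (29.1 CPM), Ldha (11.9 CPM), Pfkp (67.4 CPM) and Egln3 (2.92 CPM). The a.del library had the highest Slc2a1 (67.8 CPM) and the lowest Pfkfb3 (13.5 CPM), and ac.del the highest Egln3 (10.4 CPM). The 4k.b.c library was lowest for Slc2a3 (33.9 CPM) and Bnip3 (0.912 CPM, with chromosome 7 at a 129 share of 36.7%). Bnip3 in 680kinv (16.8 CPM) was below c.del replicate 1 only. 100kdel and 245kdel had nearly the same Pfkp (139 and 140 CPM), Slc2a1 (56.5 and 52.4 CPM) and Bnip3 (6.15 and 6.11 CPM).

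Pfkfb3 was lower than both F121-9 libraries (23.7 and 45.1 CPM) in 10 of 14 edited libraries and higher in 0, with differences of -0.55, -0.56 and -0.37 in abc.del, ab.del and c.del (SE 0.34 each, limma adjusted p from 0.621 to 0.734). F121-9 replicate 2 was the highest of all libraries. The widest Pfkfb3 line, chr2:11471431-11553929 on the minus strand, extends upstream of a shorter one that starts at 11502090, and the share of its reads outside the shorter line was 42.6% and 20.6% in abc.del, 43.9% and 24.2% in ab.del and 17.8% and 31.4% in c.del, against 39.0% and 57.4% in F121-9. Over all libraries this share ran from 5.85% in a.del to 57.4%. Reads upstream of the shorter line therefore differed widely between libraries, including those of 1 group.

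Combinations of sites gave 0 calls as well. Between abc.del and ab.del limma called 0 of 10 genes (0 unadjusted, 0% of all genes), and the term for a combined effect of the ab and c deletions beyond their sum called 0 of 10 (0 unadjusted, 0.0071% of all genes). In an additive model of the 12 lettered libraries, terms for sites a, b and c each called 0 of 10, against 0.0142%, 0% and 0% of all genes. Of all 14094 genes, 132 had an unadjusted p under 0.05 between abc.del and ab.del and 691 for the combined effect. For sites a, b and c these were 1246, 717 and 459. edgeR and DESeq2 called 0 of 10 in all of these. At an unadjusted p under 0.05 stood Slc2a1 for site a (0.46) and site b (-0.54), and Ldha (0.62), Slc2a3 (0.45) and Vegfa (-0.83) for site c, with limma adjusted p of at least 0.521.

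The same comparisons on each copy asked whether one allele carried a difference. On the 129 copy limma called 0 of 10 genes in abc.del, ab.del and c.del (1 unadjusted in each, which was Pdk1), against 0.25%, 0.215% and 0% of all genes. Of all 13985 genes on that copy, 11.3%, 9.07% and 7.62% had an unadjusted p under 0.05 (1581, 1269 and 1065), so 1 of 10 is near that share. On the cast copy it called 0 of 10 in each (0, 0 and 1 unadjusted), against 0%, 0% and 0% of all genes, with 1079, 779 and 1061 of 13870 genes at an unadjusted p under 0.05. For the change of 129 minus cast it again called 0 of 10 in each (0, 1 and 1 unadjusted), against 0%, 0% and 0%, with 928, 665 and 790 of 12830 genes unadjusted. Count tools were not run on single copies. Vegfa had the smallest unadjusted p of these, with 1.06 more on the 129 minus cast scale in c.del than in F121-9 (unadjusted p = 0.00251, limma adjusted p = 0.737). From its 129 copy came 76.8% and 69.6% of reads in c.del, against 59.1% and 54.4% in F121-9, and these were the 2 highest shares of the 16 libraries. Without c.del replicate 2, Vegfa on the cast copy differed by -2.84. That fit rests on c.del replicate 1 alone, whose cast copy gave 0.832 CPM (19 reads), while that of c.del replicate 2 gave 4.44 CPM.

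Between the runs of sample numbers Ldha and Bnip3 were lower and Hk2 was higher in the second. In a model of the 12 lettered libraries with terms for the 3 sites, 24.6% of all genes differed between the second and the first run. Among them were 3 of the 10 genes, 1 higher and 2 lower. That count is close to the share of all genes, so it does not set the 10 genes apart. Of all genes called, 2476 were higher and 985 lower, and the median over all genes was 0.15. After median centring the median was -0.13 and the split 1080 higher and 2440 lower, and the split by edgeR was 1542 and 1631. The median log2 value of a library was 2.89 to 3.20 in the second run and 2.64 to 2.87 in the first, so directions near that shift depend on scaling. F121-9 was only in the first run, and what the runs were cannot be told apart from which clones they held.

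Ldha was lower in the second run. Over the lettered libraries it had a lowest, median and highest value of 11.9, 25.7 and 36.1 CPM in the second run (n = 5), against 30.1, 32.8 and 55.6 CPM in the first (n = 7), so the ranges overlapped only through c.del replicate 2. The difference was -0.78 (SE 0.16, limma adjusted p = 0.00473), and it was -1.06 with median centring and -0.96 by edgeR. Bnip3 was also lower, with 1.62, 2.53 and 6.46 CPM in the second run, against 6.40, 7.44 and 37.8 CPM in the first, where ac.del overlapped with the lowest libraries of the first run. Its difference was -1.82 (SE 0.43, limma adjusted p = 0.00930), and with any 1 library left out it was -2.39 to -1.43 and passed each time. Without a filter on low values only Ldha passed, with limma adjusted p of 0.0505 for Hk2 and 0.0750 for Bnip3.

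Hk2 was higher in the second run, with 138, 191 and 246 CPM, against 102, 120 and 190 CPM in the first. The difference was 0.62 (SE 0.14, limma adjusted p = 0.00819). It was 0.35 with median centring (limma adjusted p = 0.116) and 0.46 by edgeR (adjusted p = 0.0428), so its size and its call depend on scaling. Egln3 differed by -0.57 (SE 0.23, limma adjusted p = 0.0862), but passed with median centring (-0.85, limma adjusted p = 0.0193), by edgeR (-0.77, adjusted p = 0.0351) and by DESeq2 (-0.79, adjusted p = 0.0101). The second run includes a.del, where Egln3 had no 129 reads and the 129 share of chromosome 12 was 0.440%. Without a.del the difference was -0.49 (limma adjusted p = 0.106), and -0.76 with median centring (limma adjusted p = 0.0218). Slc2a1 gave 29.1, 59.2 and 67.8 CPM in the second run, against 33.5, 35.9 and 47.7 CPM in the first, where b.del was the low library of the second. Its difference of 0.37 missed the threshold (limma adjusted p = 0.0840) but passed without b.del (0.60, limma adjusted p = 0.0265) or without ac.del (0.46, limma adjusted p = 0.0310), and it was 0.09 with median centring. Pdk1, Pfkp, Pfkfb3, Slc2a3 and Vegfa had differences of -0.25 to 0.43 and did not pass.

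Of the marker lists, only the neural and the mesoderm sums separated by run. Those of feeders were 0 to 1.65 CPM in the second run and 0.307 to 1.52 CPM in the first. Sums of primitive endoderm were 1.51 to 3.68 and 0.864 to 2.80 CPM, and of the primed state 11.1 to 20.5 and 12.1 to 23.7 CPM. The summed level of 3 neural markers was 9.12 to 27.0 CPM in the second run (median 15.1) and 2.18 to 5.82 CPM in the first (median 2.85). That of 3 mesoderm markers was 1.23 to 2.96 CPM in the second run and 0.330 to 0.990 CPM in the first, and that of 8 stem cell markers 1544 to 1987 and 1533 to 2143 CPM. The neural and the mesoderm sums did not overlap between the runs, where 24.6% of all genes differed in the run term. How many of all genes do not overlap was not counted. Of each list of 3, 2 had a mean of at least 0.2 CPM, and the defining markers Sox1 and T had medians of 0.147 and 0.205 CPM. Their part in the differences of Ldha, Bnip3 and Hk2 was not tested.

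In fits added after the values had been seen, the run differences of Ldha, Bnip3 and Hk2 had the same sign on both copies, although not each passed. On the 129 copy 2 of 10 genes passed, Ldha (-1.05, limma adjusted p = 0.00522) and Hk2 (0.67, limma adjusted p = 0.0158, but 0.0695 without b.del), against 14.2% of all genes. On the cast copy 1 of 10 passed, Bnip3 (-2.23, limma adjusted p = 0.0238), against 13% of all genes, and it did not pass without ab.del replicate 1 (0.0702), ab.del replicate 2 (0.0639) or c.del replicate 2 (0.0751). For 129 minus cast 0 of 10 passed (4 unadjusted), against 0% of all genes, with 1062 of 12830 unadjusted. Bnip3 (0.67), Ldha (-0.49), Pfkfb3 (-0.59) and Slc2a3 (0.39) were the 4 genes at an unadjusted p under 0.05. The 129 copy gave 34.7% to 46.3% of Ldha reads in the lettered libraries of the second run and 48.0% to 55.6% in those of the first. Chromosome 7 as a whole gave 52.3% to 53.6% in those 12 libraries. For Pfkfb3 the 129 copy gave 49.3% to 60.6% in the second run and 60.7% to 70.5% in the first. Ranges did not overlap for either gene, and how many of all genes do the same was not counted.

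Between the 2 copies, 6 of the 10 genes differed in the limma fit of 129 minus cast over the 8 libraries of abc.del, ab.del, c.del and F121-9, against 35.1% of 12830 autosomal genes, 2544 of them higher and 1957 lower on 129. The median over all genes was 0.02. In 5 of the 6 the 129 copy was higher. Slc2a3 was the most unequal of these 5, with 79.0 and 112 CPM from 129 and 42.8 and 62.4 CPM from cast in F121-9 and a difference of 1.14 (SE 0.07, limma adjusted p = 0.000492). Its 129 copy was above cast in 16 of 16 libraries, with a share of 66.7% to 82.8%.

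**Figure D3:**
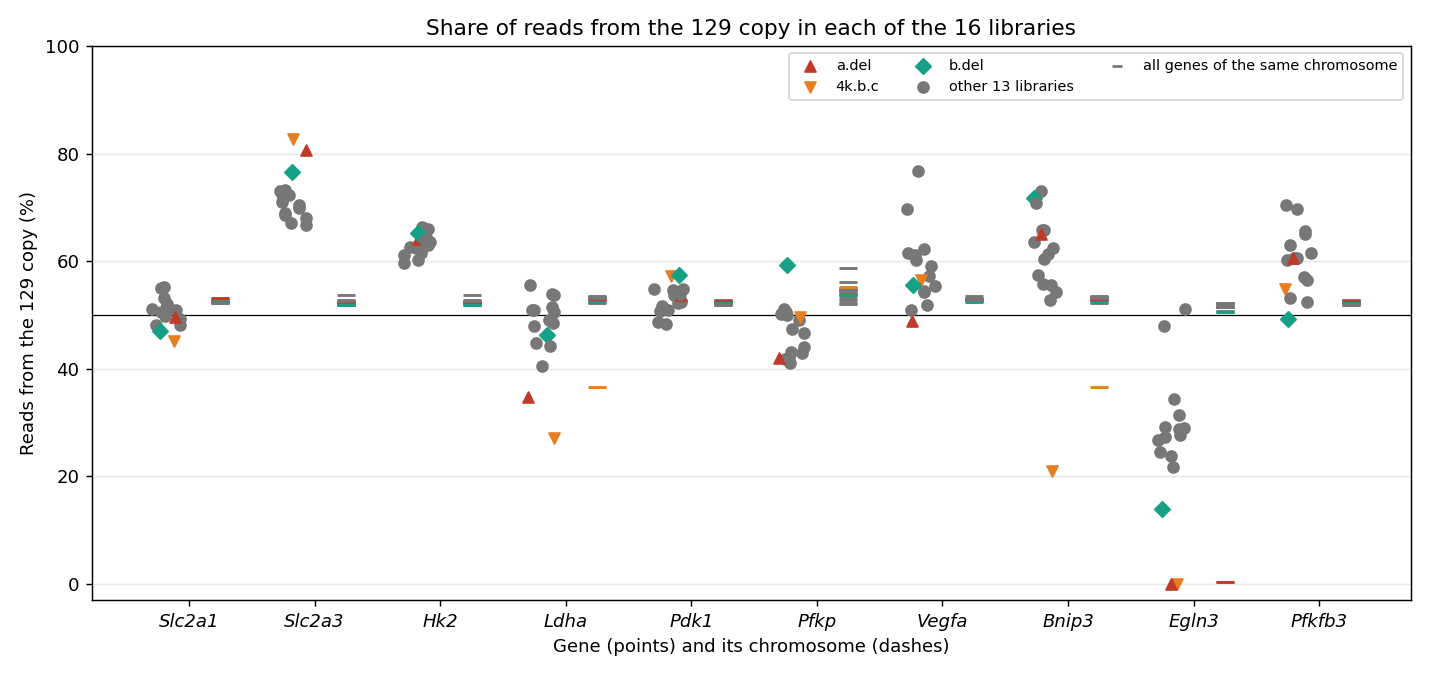
Share of reads from the 129 copy (y axis, %) for each of the 10 genes (x axis) in the 16 libraries, with a.del, 4k.b.c and b.del marked and dashes for all genes of the same chromosome. Egln3 has a share of 0 in a.del and 4k.b.c, where chromosome 12 is also near 0, and 14.0% in b.del, where it is not. Slc2a3 lies at 66.7% or above in every library.

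The 2 highest Slc2a3 shares were 82.8% in 4k.b.c and 80.8% in a.del, which had the lowest cast levels (12.1 and 18.1 CPM) while chromosome 6 stood at 52.1% and 52.4%. Of 9 other genes within 250 kb of Slc2a3 with a mean of at least 1 CPM, 1 was higher on 129 in all libraries. Nanog, the pluripotency factor next to it, was higher on cast in 16 of 16 libraries (median 129 minus cast of -0.31), Gdf3, a growth factor gene, was higher on 129 in 16 (0.56), and Necap1, an endocytosis gene, was higher on 129 in 2 (-0.27).

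Hk2 differed by 0.62 (SE 0.06, limma adjusted p = 0.00131), also in 16 of 16 libraries, with a narrow share of 59.6% to 66.3%. Vegfa differed by 0.53 (SE 0.07, limma adjusted p = 0.00400) and was higher on 129 in 14 of 16. Pfkfb3 (0.61, SE 0.14, limma adjusted p = 0.0211) and Bnip3 (0.58, SE 0.14, limma adjusted p = 0.0252) were higher on 129 in 15 of 16 each. With 1 library left out, limma adjusted p was 0.00652 to 0.0700 for Pfkfb3 and 0.0179 to 0.0783 for Bnip3. Pfkfb3 missed the threshold without either abc.del, either F121-9 library or ab.del replicate 1, and Bnip3 without either abc.del, either F121-9 library or ab.del replicate 2. Bnip3 also missed it with the run as a covariate (0.40, limma adjusted p = 0.0629). Pdk1 (0.04), Slc2a1 (-0.06), Ldha (-0.15) and Pfkp (-0.26) did not pass, and Ldha (-0.36, limma adjusted p = 0.0112) and Pfkp (-0.31, limma adjusted p = 0.0146) passed when all 16 libraries were fitted. That fit holds 4k.b.c, where Ldha gave 27.2% and chromosome 7 36.7% of reads from 129. In a fit added after the values had been seen, over the 14 libraries other than a.del and 4k.b.c, Ldha did not pass (-0.18, limma adjusted p = 0.127) and Pfkp did (-0.30, limma adjusted p = 0.0230).

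Egln3 was the 1 gene called higher on cast. It gave 2.57 and 3.92 CPM from 129 and 7.45 and 9.58 CPM from cast in F121-9, and its difference was -1.53 (SE 0.07, limma adjusted p = 0.000372), with cast above 129 in 16 of 16 libraries. In a.del the 129 copy had 0 of 181 reads, which allows a share of up to 1.66%, and in 4k.b.c 0 of 67 reads, which allows up to 4.48%. Chromosome 12 as a whole was nearly without 129 reads in both, so the lack of 129 reads was shared by the chromosome. Their cast copies gave 9.70 and 6.49 CPM, within the range of 3.96 to 15.5 CPM of all libraries. In b.del the 129 copy gave 14.0% of 57 reads while chromosome 12 stood at 50.5%, and in bc.del and 680kinv it gave 51.1% and 47.9%, the most balanced values. The remaining libraries ranged from 21.8% to 34.5%. The a.del and 4k.b.c libraries were not in the test.

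Chromosome 7 was unequal in 4k.b.c only, where Ldha gave 27.2% and Bnip3 21.1% of reads from 129 (4 of 19 reads for Bnip3), against 36.7% for the chromosome. In a.del, Ldha gave 34.7% with the chromosome at 52.7%. The median share over all autosomal reads was 52.6%.

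Whether the 10 genes varied together was asked over all 45 pairs across the 16 libraries, several of which share a group and are not independent. After adjustment over the 45 pairs, 3 passed for Pearson's r by a permutation test (10 had an unadjusted p under 0.05), and the median r was 0.16 with 29 of 45 above 0. The permutations treat the libraries as exchangeable, although many genes differed between the runs. How many pairs among all genes reach a like r was not counted. For Bnip3 and Egln3, r was 0.75 by a permutation p of 0.00065, adjusted to 0.0292, and Spearman's rho was 0.79 by a permutation p of 0.00045, adjusted to 0.0202. Leaving out the 2 libraries farthest from the median of Bnip3, c.del replicate 1 and 4k.b.c, gave r = 0.63. Without a.del and 4k.b.c, in which Egln3 had no 129 reads, r was 0.69. It was 0.56 within the second run and 0.75 within the first.

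Pfkp and Pfkfb3, the enzyme and the maker of its activator, had r = 0.72 by a permutation p of 0.00148, adjusted to 0.0333, and rho = 0.72 by a permutation p of 0.0022, adjusted to 0.0495, with r of 0.76 within the second run, 0.67 within the first and 0.78 without 2 libraries. Ldha and Bnip3 had r = 0.70 by a permutation p of 0.00254, adjusted to 0.0381, but rho = 0.60 by a permutation p of 0.0166, adjusted to 0.107, with r of 0.50 within the second run, 0.81 within the first and 0.74 without 2 libraries. After median centring 8 pairs passed. Vegfa ran opposite to Bnip3 (r = -0.53, permutation p = 0.0379, adjusted p = 0.19), which was -0.20 without 2 libraries.

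**Figure D4:**
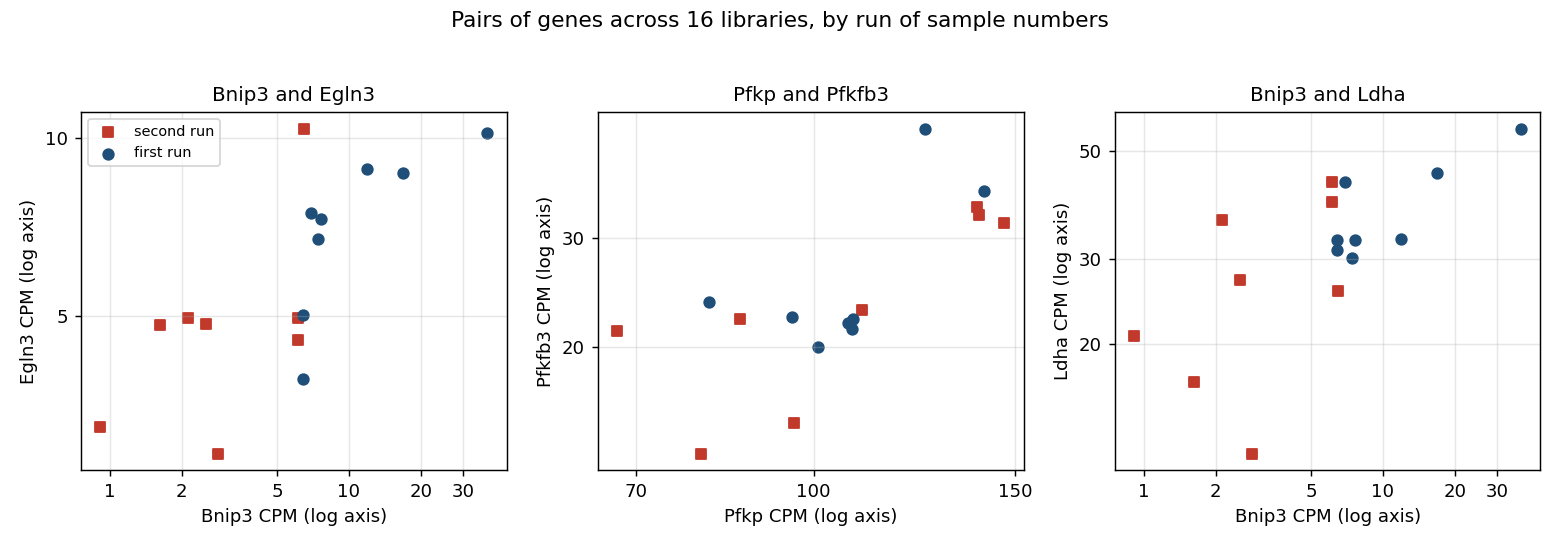
Levels (CPM, mean of both copies, log axes) of Bnip3 and Egln3, Pfkp and Pfkfb3, and Bnip3 and Ldha in the 16 libraries (1 point each), with squares for the second and circles for the first run of sample numbers. The 3 pairs have r of 0.75, 0.72 and 0.70.

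For each gene the most similar profiles among 11225 genes with a mean of at least 1 CPM were listed by Pearson's r over the 16 libraries, as a description. The closest were Prickle3 for Pfkp (0.94), Snx27 for Bnip3 (0.93), Rgma for Hk2 (0.91), Atxn7l1 for Pdk1 (0.91) and Gorasp1 for Slc2a1 (0.91). They were followed by Rabepk for Pfkfb3 (0.90), Alg14 for Egln3 (0.89), Slc6a9 for Vegfa (0.87), E130102H24Rik for Slc2a3 (0.86) and Atm for Ldha (0.86). The second in rank were 6030443J06Rik for Pfkp (0.87), Abi2 for Bnip3 (0.90), Tfpi for Hk2 (0.89), Klhl7 for Pdk1 (0.91) and Bad for Slc2a1 (0.87), and Pcyox1l for Egln3 (0.88), Fbln5 for Vegfa (0.85), Acot1 for Slc2a3 (0.85) and Ola1 for Ldha (0.86). None of the 10 genes was among another's closest 2.

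The oxygen sensing machinery around these genes was measured through 9 genes, of which 7 passed the filter. Epas1, a HIF alpha subunit, had a median of 41.6 CPM (29.2 to 75.2), Egln1, the main HIF prolyl hydroxylase, 17.7 CPM, and Vhl 6.37 CPM (3.67 to 8.54). Hif1a had 46 assigned reads in all 16 libraries together and was not tested, and at so few assigned reads its level cannot be read. In the 3 edited groups with 2 libraries and for each site, limma called 0 of the 7, with 0 at an unadjusted p under 0.05. Between the runs 3 of 7 were higher and 0 lower, where 24.6% of all genes passed, 2476 higher and 985 lower: Egln2, another HIF prolyl hydroxylase (1.21, SE 0.17, limma adjusted p = 0.000606), Hif1an, which hydroxylates HIF at an asparagine (0.68, SE 0.12, limma adjusted p = 0.00230), and Arnt2, a partner of HIF alpha (0.86, SE 0.16, limma adjusted p = 0.00298). Arnt gave -0.43 (limma adjusted p = 0.107). The median of the 7 was 0.45, against 0.15 for all genes. With median centring 3 were higher and 2 lower, and Egln2, Hif1an and Arnt2 still passed in the same direction.

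Of 29 other glycolytic enzymes and transporters 26 were tested. None passed in abc.del, ab.del or c.del or for a site. In the 3 groups 5, 3 and 8 of the 26 had an unadjusted p under 0.05, beside 10.3%, 7.8% and 9.44% of all genes. Each count is a larger share of the list than that of all genes, most so in c.del. The list was not tested as a set. Between the runs 2 of 26 were higher and 7 lower, beside the 24.6% of all genes that passed (2476 higher and 985 lower), and with median centring 1 and 10. Gapdh, a dehydrogenase in the middle of glycolysis with many near-identical pseudogenes, which makes its count uncertain, differed by 1.44 (SE 0.26, limma adjusted p = 0.00208), and Pfkl, the liver-type phosphofructokinase, by -1.09 (SE 0.22, limma adjusted p = 0.00352). Pgk1, phosphoglycerate kinase, differed by -1.04 (limma adjusted p = 0.000643) and Pfkfb1, a relative of Pfkfb3, by -1.03 (limma adjusted p = 0.00214). These 2 genes are X-linked, and the median over 510 X-linked genes was -0.29 between the runs, and -0.83, -0.75 and -0.71 in abc.del, ab.del and c.del.

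Of 35 other hypoxia response genes 30 were tested, and none passed in abc.del, ab.del or c.del or for a site, with 3, 3 and 1 unadjusted in the 3 groups, beside 10.3%, 7.8% and 9.44% of all genes. Ak4, a mitochondrial adenylate kinase, had the smallest p of the list in abc.del and ab.del, with -1.17 in abc.del (limma adjusted p = 0.153) and -1.19 in ab.del (0.261). Between the runs 5 of 30 were higher and 5 lower, beside the same 24.6% of all genes, and with median centring 3 and 8. P4ha1, a collagen prolyl hydroxylase subunit, differed by -1.08 (SE 0.17, limma adjusted p = 0.00136), Higd1a, a mitochondrial protein, by 0.98 (SE 0.17, limma adjusted p = 0.00186) and Cited2, a coactivator that limits HIF activity, by 1.63 (SE 0.39, limma adjusted p = 0.0101). The median of the 30 was 0.01, and that of the 26 glycolytic genes -0.11. Adm and Epo, both classic hypoxia genes, had 0 assigned reads in all 16 libraries, and Car9 had 6. At so few assigned reads their levels cannot be read.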

How the data were processed

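Per the labels' protocols, RNA (300 ng) holding bromouridine was pulled down with antibody, and its stranded libraries were read from 1 end over 100 bases. The submitters' processing notes name Bowtie2, bedtools and the mm10 build; the versions were not given in the sources used here. A mapping quality of 10 was used, per the file headers, and homozygous SNPs divided the reads between the SvIm reference, taken as the 129 copy, and cast. The CPM values deposited by the authors carry the name RPKM, but each of 32 columns sums to 1000000 over 42497 lines, and division by a column's smallest value above 0 gave whole reads within 0.01 for 100% of values.

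Levels are the mean of both copies, tested as log2(CPM + 0.1), which understates changes of low genes, over genes with a mean of at least 0.2 CPM, using limma 3.58.1 (trended, two-sided, Benjamini-Hochberg over all genes tested, threshold 0.05) in R 4.3.3. Groups with 2 libraries were fitted together, and site and run terms over 12 lettered libraries. edgeR 4.0.16 and DESeq2 1.42.0 were run on recovered reads. Correlations used 100000 permutations. Shares in which a copy had 0 reads carry the limit of 3 reads, which covers counting error only. The fits were checked on simulated counts. Python 3.11.15, numpy 2.4.6, pandas 2.3.3, scipy 1.17.1 and matplotlib 3.10.9 were used.

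The members, wider gene lists and tests were chosen with earlier results of these data known. Genes named beyond the 10 were up to 4 per wider list with the smallest p, the 2 most similar profiles per gene (1 profile is not reported here), the oxygen sensing genes Hif1a, Epas1, Vhl and Egln1, and, chosen after their values were seen, marker genes, genes within 250 kb of Slc2a3, Adm, Epo and Car9. Marker lists of primitive endoderm and of the primed state summed to 0.864 to 3.68 CPM and 11.1 to 23.7 CPM. The alternatives tried were other pseudocounts, filters, median centring, the highest line per symbol, other sets of libraries, the run as a covariate, count tools and leaving out each library.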

Additional observations from a re-analysis of the deposited data

How the results depend on the processing

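Of 336 alternatives for counts of the 10 genes called, 320 stayed within 1.5 times the main count and 16 did not; no value of a called gene changed sign. With the run of sample numbers as a covariate the counts were 1 for abc.del, 1 for ab.del and 2 for c.del, and on the 129 copy 1 in each, in place of 0. Apart from fits with 1 library left out, no setting called more than 671, 202 and 224 of all genes in these groups. On the 129 copy the most were 676, 95 and 72. With only the groups compared abc.del gave 1. Without a filter on low values the run term called 1 gene in place of 3. With 1 library left out it called 3 to 4, 129 minus cast called 4 to 6, the cast copy in c.del 0 to 1, and the run term 1 to 3 on the 129 copy and 0 to 3 on the cast copy; every other count stayed at 0. The number of correlated pairs was 8 with median centring in place of 3. Counts over all genes moved more. Across settings, and with 1 library left out, they ran from 13 to 671 and 0 to 156 for abc.del (31), 6 to 202 and 0 to 53 for ab.del (7), 5 to 224 and 0 to 29 for c.del (7), 2364 to 4068 and 2192 to 3779 for the run term (3461), 3478 to 6668 and 3304 to 4201 for 129 minus cast (4501), 0 to 160 and 0 to 6 for site a (2) and 1 to 20 and 0 to 4 for the interaction (1). On the 129 copy they ran from 23 to 676 and 0 to 591 for abc.del (35), 10 to 95 and 0 to 471 for ab.del (30) and 0 to 72 and 0 to 364 for c.del (0), and on the cast copy from 0 to 1 in each (0), with 0 to 65, 0 to 15 and 0 to 602 when 1 library was left out. The cause of these moves was not tested. A group left with 1 library was assumed to vary like the others. No paired analysis was possible because only the F121-9 libraries carry replicate numbers in their labels. Groups of 2 libraries, and fewer than 100 reads for Bnip3 or Egln3 in some libraries, limit what could be detected.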
